A study of Mus musculus with 17 samples.

Results

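Histone genes encode the proteins that package DNA into nucleosomes. Here they are the genes whose annotated symbol begins with a histone prefix (Hist1 to Hist4, H1f, H2af, H2ac, H2az, H2aw, H2ax, H2bc, H3c, H3f or H4c). Each gene was read from probe sets annotated to it alone, and the probe set with the highest mean log2 intensity over all arrays stood for it. This gave 19 genes of the 18194 measured in sorted mouse hematopoietic stem cells (HSCs), 10 replication-dependent and 9 variant. All 19 were above the lowest deposited intensity on at least 1 array and were tested among 16785 genes. No H4 gene had a probe set of its own.

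Replication-dependent histones lie in clusters of near-identical gene copies and are transcribed mainly in S phase. Their mRNAs end in a stem-loop in place of a poly(A) tail, although H1f2 and H2bc21 are known also to give polyadenylated mRNA. How far the amplification copied mRNA without that tail is not stated, which limits every replication-dependent value here. Most variant histones, such as H2A.Z and H3.3, come from genes outside these clusters with polyadenylated mRNA and are made throughout the cell cycle to replace or supplement the S-phase histones. Adult HSCs are known as a largely quiescent population and fetal liver HSCs as a cycling one, so that the replication-dependent class bears on the quiescence named in the series title.

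Of 17 Affymetrix arrays, 3 held fetal liver HSCs from E15.5, 3 control and 3 C/EBPa knockout (KO) HSCs at day 7 after injection of pIpC, and 4 control and 4 KO HSCs at day 21. pIpC, an RNA duplex that mimics viral infection, induces interferon and often serves to turn on Cre in adult blood cells. The genotype field calls the controls wild type and gives the samples titled KO as PU.1ki/ki, a PU.1 knock-in that the design text names too, so the labels conflict and groups follow the titles. No genotype or pIpC treatment is given for fetal liver, and neither a Cre driver nor the age of the adults is given in the sources used here. Adult cells were sorted as lineage-negative, Sca-1+, c-Kit+, CD150+ and CD48-, fetal cells with low Mac-1 in addition. Whether replicates came from separate mice or pools is not stated, and p-values reflect only how these samples spread, which may be technical.

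Intensities are the authors' deposited linear values with a floor of 16. Array medians ran from 39.4 to 53.1, with a floor share of 20.4% to 25.2% of probe sets. They were 39.4 to 47.7 in control day 21 and 46.9 to 49.5 in KO day 21. Centring arrays on their medians took the genes higher in KO at day 21 from 8438 to 6026 of 16785. Replicate 3 of control day 21 stood apart. It had the highest floor share, the lowest 3' to 5' signal ratio (log2 −0.40) and the lowest median correlation with its group (0.814). In the control day 7 group, replicate 1 was the least alike (0.868). Cebpa, the gene for C/EBPa, ranged from 115 to 532 on the control arrays and from 20.7 to 39.8 on the KO arrays, and Spi1, the gene for PU.1, overlapped between KO and control at both days. Whether the Cebpa probe set lies in the deleted part is not given. The HSC markers Slamf1 (CD150), Kit and Procr were above the floor on every array, whereas Cd48, which the sort should remove, stood at 99.5 to 210 in fetal liver, 16 to 18.8 in control day 7, 60.9 to 283 in KO day 7, 18.6 to 658 in control day 21 and 90.3 to 308 in KO day 21. Because bulk RNA was measured, fewer cells making a histone mRNA and less of it per cell cannot be told apart.

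The promoters of the 3 histone genes called in fetal liver are shown because each carries elements long known from histone genes. The windows hold the 250 bases before the annotated start, from RefSeq on GRCm38.p6, and capitals mark matches on either strand to CCAAT, to TATAAA, to the octamer ATTTGCAT or to the H1 box AAACACA. H1f4 encodes a linker histone (chr13:23622559-23622808, minus strand), H2aw encodes an H2A (chr11:58954435-58954684, plus strand) and H2bc22 an H2B (chr13:21787238-21787487, plus strand).
H1f4: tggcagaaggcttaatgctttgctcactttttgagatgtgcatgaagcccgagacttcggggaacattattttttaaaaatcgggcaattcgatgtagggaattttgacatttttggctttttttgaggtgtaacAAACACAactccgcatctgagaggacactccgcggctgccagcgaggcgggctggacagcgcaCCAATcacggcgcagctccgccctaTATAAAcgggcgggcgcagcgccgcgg
H2aw: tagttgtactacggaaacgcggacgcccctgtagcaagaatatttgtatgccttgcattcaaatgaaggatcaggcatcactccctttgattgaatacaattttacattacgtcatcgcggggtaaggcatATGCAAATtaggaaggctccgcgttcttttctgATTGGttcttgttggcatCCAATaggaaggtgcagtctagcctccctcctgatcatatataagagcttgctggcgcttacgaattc
H2bc22: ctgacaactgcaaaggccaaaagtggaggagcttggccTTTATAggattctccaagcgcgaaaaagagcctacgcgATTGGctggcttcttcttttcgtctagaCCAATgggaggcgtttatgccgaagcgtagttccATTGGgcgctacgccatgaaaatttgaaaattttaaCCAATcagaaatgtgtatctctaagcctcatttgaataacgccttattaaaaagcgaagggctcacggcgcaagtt
Windows of 16 of the 19 genes were matched. CCAAT occurred in 14 of these, in 8 of 8 replication-dependent and 6 of 8 variant genes, against 34.5% of 27025 promoters of the same length. TATAAA occurred in 5 (4 of 8 and 1 of 8), against 13% of all promoters. On the gene's strand it began 27 bases before the start in H1f4 and H3f3b, 147 in H3c11 and 168 and 161 in H3c4. On the opposite strand it lay at 212 in H2bc22 and 32 in H3c4. The octamer occurred in 3 (2 of 8 and 1 of 8), against 1.61%. The H1 box occurred in 4, against 6.22%. Its replication-dependent carriers were the linker genes H1f2 and H1f4, and its variant carriers were the testis linker gene H1f6 and H3f3a. Matches to different motifs shared no bases in the printed windows. A match describes the sequence and not a bound site.

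**Figure D1:**
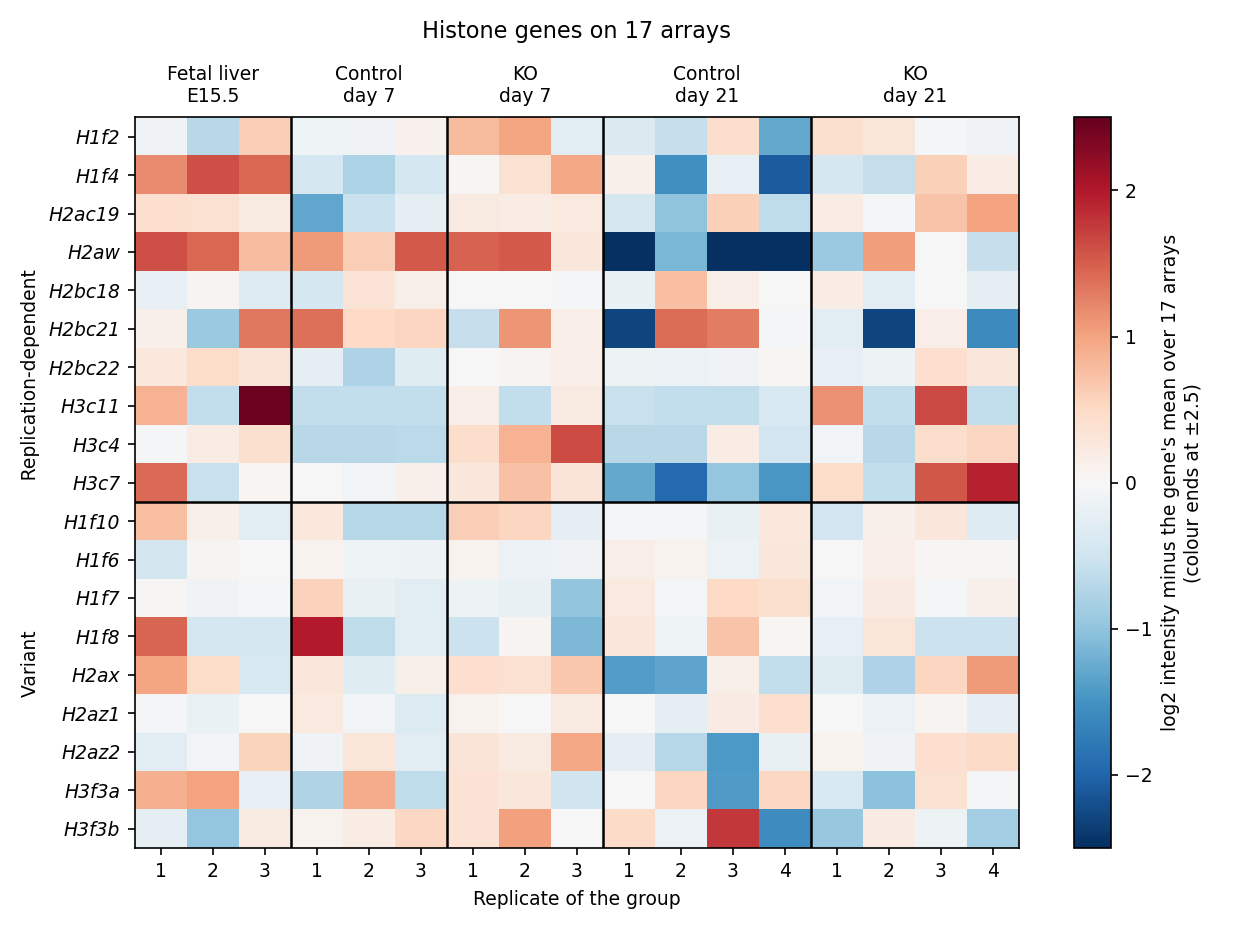
Each cell shows the log2 intensity of a histone gene (rows) on an array (columns, by group and replicate) minus the mean of that gene over 17 arrays, with colours ending at 2.5 either way. H1f4 is high on the 3 fetal liver arrays, and H2aw is low on the 4 control day 21 arrays.

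In fetal liver HSCs, 3 of the 10 replication-dependent genes rose against the average of the adult controls of both days. They were the linker histone H1f4, the H2A gene H2aw and the H2B gene H2bc22. H2aw overlapped control day 7, and its call rests on its low level in control day 21. None of the 9 variants was called in either direction. Over all genes tested, 3.65% were called and 1.88% were called higher (limma, Benjamini-Hochberg adjusted p under 0.05). The median log2 difference was 0.81 over the replication-dependent genes, with 8 of 10 higher, −0.09 over the variants, with 4 of 9 higher, and 0.02 over all genes, of which 52% were higher. Stage, tissue and the sort, with low Mac-1 for fetal cells only, differ together in this comparison and cannot be told apart. The labels do not say whether pIpC treatment or genotype differed too. The variant median was 0.30 without control day 7 replicate 1, so its sign is not stable.

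H1f4, one of the main somatic H1 proteins that bind linker DNA, stood at 4826, 6518 and 5758 in fetal liver, at 1576, 1227 and 1575 in control day 7 and at 2309, 737, 1833 and 499 in control day 21. Every fetal array lay above every control array. The log2 difference was 2.15 (SE 0.42, limma adjusted p = 0.0114), a 4.45-fold higher level. Against control day 7 alone it was 1.97 (adjusted p = 0.0576) and against control day 21 alone 2.34 (adjusted p = 0.0158). Without fetal liver replicate 2 the adjusted p was 0.0569. H1f2, another somatic linker gene, which also gives polyadenylated mRNA, overlapped, at 1291, 850 and 2092 in fetal liver and 1274, 1295 and 1473 in control day 7. Its difference was 0.18 (SE 0.36, adjusted p = 0.863), and its other 2 probe sets gave −0.38 and 0.91.

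H2aw stood at 464, 408 and 258 in fetal liver, at 316, 230 and 439 in control day 7 and at 19.1, 68.2, 21.0 and 20.7 in control day 21. Fetal liver overlapped control day 7 and lay above control day 21. The log2 difference from both controls was 1.97 (SE 0.48, limma adjusted p = 0.0393). It was 0.20 (SE 0.57, adjusted p = 0.929) against control day 7 and 3.74 (SE 0.53, adjusted p = 0.00155) against control day 21, where 3 of 4 arrays lay just above the floor of 16, so that the size of this last value rests on the floor. The other H2aw probe set gave 0.26 (SE 0.61) against both controls. Without the least alike array of each control group the adjusted p was 0.0874, and leaving out single arrays gave 0.0114 to 0.131.

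H2bc22 stood at 1528, 1734 and 1586 in fetal liver, at 1076, 740 and 1027 in control day 7 and at 1163, 1152, 1198 and 1298 in control day 21. The groups did not overlap, although the difference was small, at 0.61 (SE 0.15, limma adjusted p = 0.0461). Against control day 7 alone it was 0.79 (adjusted p = 0.0392), and against control day 21 alone 0.43 (adjusted p = 0.232). Leaving out single arrays gave adjusted p from 0.0415 to 0.159. The H2B copies are nearly identical, so its probe set may also bind transcripts of other copies.

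The separate control groups, compared after the data were seen, gave 1 histone gene called against control day 7 (2.39% of all genes called) and 2 against control day 21 (2.71%). Replication-dependent medians were 0.53, with 7 of 10 higher, and 0.66, with 9 of 10 higher. In each comparison 4 of these 10 genes lay above every control array, against 10.2% and 6.47% of all genes. They were H1f4, H2ac19, H2bc22 and H3c4 against control day 7, and H1f4, H2aw, H2bc22 and H3c7 against control day 21. With the least alike array of each control group left out, 2 of 10 were called, against 3.77% of all genes, and 9 of 10 were higher, with a median of 0.86, whereas the variants gave 0.24 with 6 of 9 higher.

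H2ac19, an H2A gene, had 2605, 2531 and 2251 in fetal liver, 788, 1320 and 1660 in control day 7 and 1437, 965, 2921 and 1249 in control day 21. Replicate 3 of control day 21 alone reached the fetal range. The difference was 0.87 (SE 0.32, limma adjusted p = 0.165), and 1.13 on its other probe set. Among the H3 genes, H3c7 gave 1.00 (SE 0.49, adjusted p = 0.327) and H3c4 0.74 (SE 0.29, adjusted p = 0.207). H3c11 was at the floor on 9 of 17 arrays, with 44.5, 16 and 133 in fetal liver, and has no fold here. The H2B genes H2bc18 and H2bc21 gave −0.25 (SE 0.21) and −0.27 (SE 0.79), and the other H2bc21 probe set gave 2.40 (adjusted p = 0.0895), so that its 2 probe sets disagree.

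Among variants, H2ax, whose protein is phosphorylated around DNA breaks, gave 0.73 (SE 0.42, limma adjusted p = 0.413). H2az1 and H2az2, the 2 genes for H2A.Z, a variant at promoters, gave −0.09 (SE 0.15) and 0.39 (SE 0.29). H3f3a and H3f3b, which encode the replacement histone H3.3, gave 0.68 (SE 0.49) and −0.51 (SE 0.54). The linker variant H1f10 gave 0.39 (SE 0.28). The germline linker genes H1f6, H1f7 and H1f8 gave −0.14 (SE 0.13), −0.19 (SE 0.21) and −0.10 (SE 0.53). Each of these 9 overlapped between groups. Of the 19 members, 2 lay above every control array (H1f4 and H2bc22) and 0 below, against 3.37% and 2.68% of all genes.

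**Figure D2:**
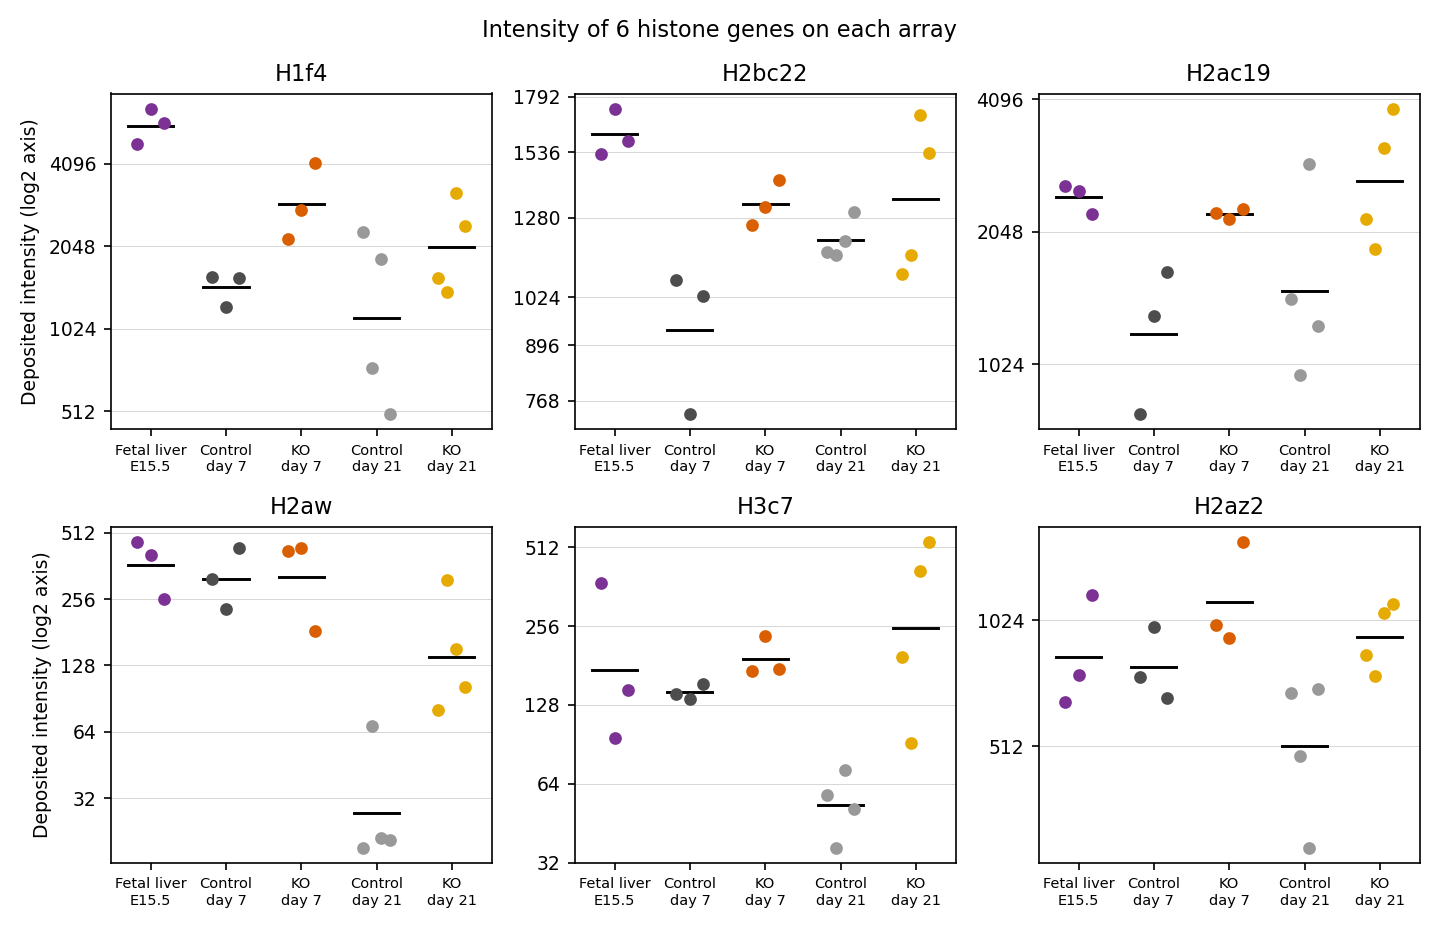
Deposited intensity on a log2 axis for 6 histone genes, with 1 point per array and a bar at the geometric mean of each group (fetal liver, control and KO at day 7, control and KO at day 21). H1f4 on the fetal arrays (4826 to 6518) lies above every control array, and H2aw in control day 21 (19.1 to 68.2) lies below every other group.

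Most histone gene copies cannot be read alone, and 25 further probe sets were annotated to several genes. They are named here by a histone family among their genes. Probe sets of a family can cover the same genes, so the 25 are not separate members. Gene counts include every annotated gene, and not all need belong to that family. Here 40023 probe sets were fitted together. In fetal liver 3 of the 25 rose (3.07% of all probe sets called, 1.46% higher). An H2B probe set of 11 genes stood at 15467, 16869 and 16495 in fetal liver. It stood at 9347, 9218 and 11294 in control day 7 and at 11230, 11892, 13098 and 14028 in control day 21. Its log2 difference was 0.55 (SE 0.13, limma adjusted p = 0.0330). An H2A probe set of 10 genes gave 1.55 (SE 0.36, limma adjusted p = 0.0356). An H3 probe set of 12 genes gave 1.42 (SE 0.35, limma adjusted p = 0.0462). On these 3 probe sets every fetal array lay above every control array.

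The brightest H4 probe set, of 13 genes, stood at 15268, 15163 and 14869 in fetal liver, 9268, 8351 and 9330 in control day 7 and 10831, 11037, 11434 and 12992 in control day 21. The groups did not overlap, at 0.57 (SE 0.15, limma adjusted p = 0.0670). In all, 7 of 25 shared probe sets lay above every control array (2.8% of all probe sets) and 19 of 25 were higher, with a median of 0.33. The brighter shared H2A.Z probe set gave 0.44 (SE 0.15, adjusted p = 0.141), and the 5 shared H3.3 probe sets ran from −0.44 to 0.46. Because a shared probe set sums its copies, it does not say which copies differ.

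**Figure D3:**
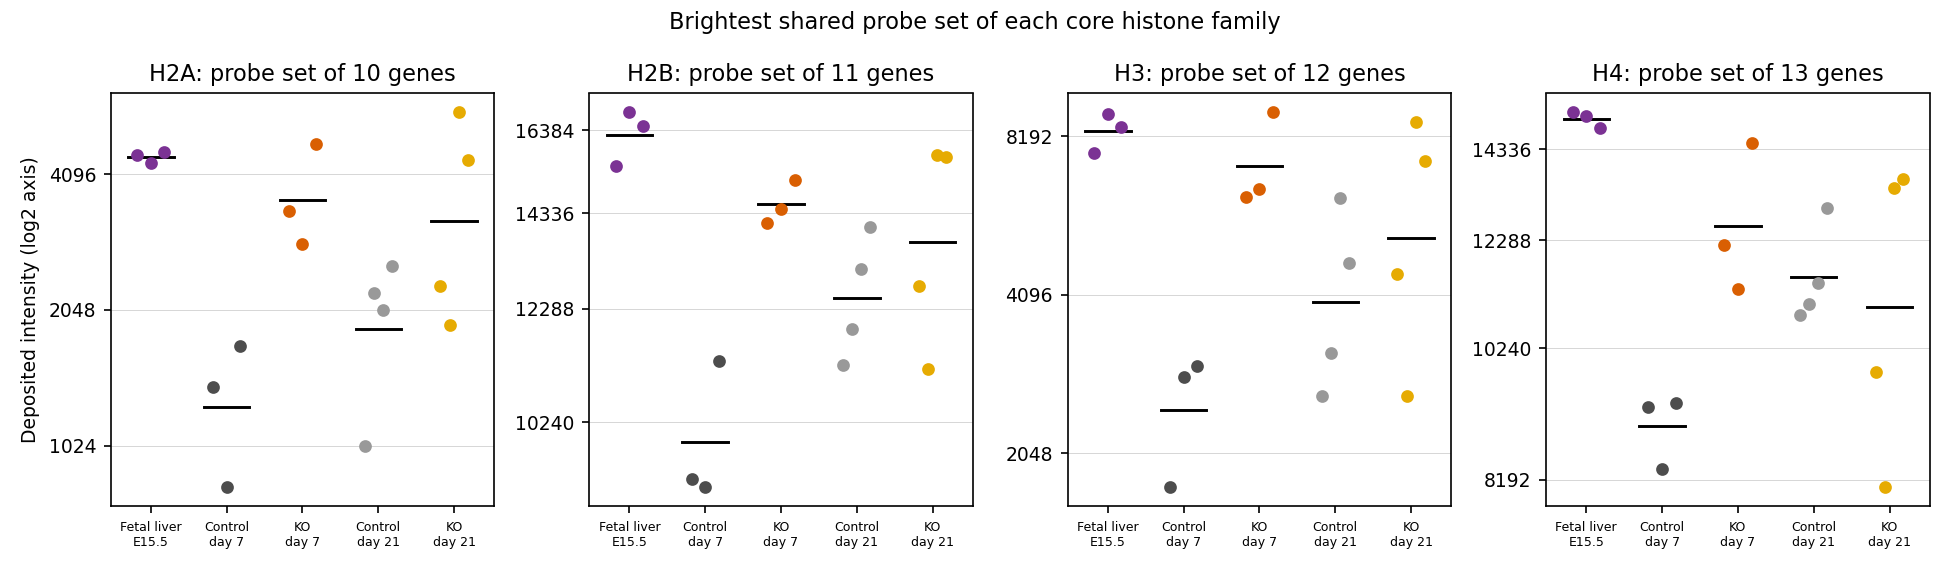
Deposited intensity on a log2 axis of the brightest shared probe set of each core histone family, 1 point per array with a bar at the geometric mean of each group. The H2A, H2B, H3 and H4 probe sets were annotated to 10, 11, 12 and 13 genes. In all 4 panels the fetal liver and KO day 7 arrays lie above every control day 7 array, and the KO day 21 arrays overlap control day 21.

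At day 7 no histone gene was called between KO and control, and no gene at all was called by limma (0% of genes). At an unadjusted p under 0.05 there were 1128 genes, among them 3 histone genes. Every array of KO lay above every control array for 6 of the 19 histone genes, against 7.48% of all genes, and below for 0 of 19, against 6.39%. The 6 were H1f4, H2ac19, H2bc22, H3c4 and H3c7 among replication-dependent genes and H2ax among variants. The median log2 difference was 0.52 over the replication-dependent genes, with 8 of 10 higher, 0.20 over the variants, with 6 of 9 higher, and 0 over all genes, of which 50.1% were higher. The variant median was 0.016 without control day 7 replicate 3.

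H3c4, an H3 gene, stood at 35.0, 47.2 and 79.9 in KO and at 16, 16 and 16.2 in control. Control lay at or just above the floor, so the fitted log2 difference of 1.66 (SE 0.35, limma adjusted p = 0.323) depends on that floor. H2bc22 stood at 1255, 1319 and 1422 in KO, above 1076, 740 and 1027 in control, with a difference of 0.51 (SE 0.18, adjusted p = 0.634). H2ac19 stood at 2255, 2193 and 2302 in KO, above 788, 1320 and 1660 in control, with 0.91 (SE 0.38, adjusted p = 0.690). These 3 had the smallest p among members that were higher.

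H1f4 stood at 2183, 2783 and 4142 in KO, above the 3 controls at 1227 to 1576, with 1.02 (SE 0.50, limma adjusted p = 0.767). H3c7 separated by less, at 172, 235 and 175 against 141, 134 and 154. H2ax, at 1333, 1309 and 1598 against 1216, 808 and 1104, was the variant whose groups did not overlap (0.45, SE 0.49, adjusted p = 0.938). Other values were 0.54 for H1f2, 0.69 for H1f10, 0.16 for H2az1, 0.52 for H2az2, 0.20 for H3f3a and 0.21 for H3f3b. The other H1f2 probe sets gave −0.06 and 0.86, so that its probe sets disagree. The 3 members with the smallest p in the lower direction were H1f7 (−0.47, SE 0.25), H1f8 (−0.90, SE 0.63, and −0.092 without control day 7 replicate 1) and H2bc21 (−0.58, SE 0.93), with adjusted p from 0.807 to 0.981. H2aw gave 0.03, which turned below 0 with arrays centred on their medians.

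Shared probe sets were mostly higher in KO at day 7, although none was called (0.0025% of all probe sets called). KO lay above every control array on 13 of 25, against 6.73% of all probe sets, and 19 of 25 were higher. The 13 were not confined to replication-dependent families. They included both shared H2A.Z sets and H3.3 sets with differences of 0.30 and 0.48. The H3 probe set of 12 genes stood at 6286, 6492 and 9095 in KO and at 1764, 2851 and 2998 in control (1.54, SE 0.41, limma adjusted p = 0.443). The H2A probe set of 10 genes stood at 3399, 2860 and 4780 against 1378, 828 and 1707 (1.53, SE 0.43, limma adjusted p = 0.481). The H2B set gave 0.55 (SE 0.15, adjusted p = 0.443), the H4 set 0.49 (SE 0.18, adjusted p = 0.648) and the brighter shared H2A.Z set 0.72 (SE 0.18, adjusted p = 0.399).

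The least alike control array at day 7, replicate 1, bears on these counts. Without it and its day 21 counterpart, 5 of 10 replication-dependent and 3 of 9 variant genes lay above control, against 12.3% of all genes, with medians of 0.52 and 0.12. They were H1f4, H2ac19, H2bc22, H3c4 and H3c7, and the variants H1f10, H2ax and H2az1, while H2bc18 lay below, 1 of 10 against 11.4% of all genes. Without control day 7 replicate 1 the whole comparison gave 6 called genes, none of them a histone gene.

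At day 21 no histone gene was called between KO and control, where 0.0179% of all genes (3) were called higher. At an unadjusted limma p under 0.05 there were 1690 genes, 5 of them histone genes. KO lay above every control array for 3 of 19 histone genes, H2aw, H3c7 and H2az2, against 3.14% of all genes, and below for 0 of 19, against 2.35%. Replication-dependent genes had a median log2 difference of 0.71, with 8 of 10 higher. The variants had −0.17, with 2 of 9 higher, and all genes 0.0022, with 50.3% higher. Centring each array on its median shifts every gene by −0.16 here, which gives 0.55 and −0.33, and a covariate for the floor share turns the variant median to 0.18.

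H2aw stood at 80.0, 312, 151 and 102 in KO and at 19.1, 68.2, 21.0 and 20.7 in control (log2 difference 2.35, SE 0.49, limma adjusted p = 0.114). Control replicate 2 was the one control above 21.0, and without it the difference was 2.79 with a limma adjusted p of 0.0315. In that fit 43 of 16785 genes were called, in place of 3 with all arrays. The other controls lay just above the floor of 16, so the size of both differences and the spread of these controls rest on the floor. A probe set annotated to H2aw and a further gene gave 0.31 (SE 0.37, limma adjusted p = 0.847). The other H2aw probe set overlapped, at 91.1, 205, 244 and 184 in KO and 16, 66.1, 119 and 24.2 in control (2.03, SE 0.62, adjusted p = 0.310).

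H3c7 stood at 194, 91.8, 415 and 535 in KO and at 57.9, 36.5, 72.0 and 51.4 in control (2.25, SE 0.50, limma adjusted p = 0.144). The lowest KO array exceeded the highest control array by a small margin. H2az2 stood at 846, 755, 1068 and 1120 in KO and at 686, 486, 294 and 702 in control (0.87, SE 0.29, adjusted p = 0.327). Its dimmer probe set gave 0.22 (SE 0.82).

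The remaining members overlapped at day 21. H1f4 stood at 1568, 1399, 3200 and 2421 in KO (0.86, SE 0.43, limma adjusted p = 0.531) and H2ac19 at 2186, 1871, 3175 and 3897 (0.83, SE 0.33, adjusted p = 0.416). H2ax ran from 588 to 2101 in KO and from 379 to 1104 in control (0.94, SE 0.43, adjusted p = 0.492). H1f2 gave 0.59, and H2bc22, at 1094 to 1705 against 1152 to 1298, gave 0.17 (95% interval −0.17 to 0.50). H2az1 gave −0.17 (SE 0.15), H1f10 −0.09, H3f3a −0.17, H3f3b −0.56, H1f6 −0.04, H1f7 −0.23 and H1f8 −0.47. H2bc18 gave −0.27 (SE 0.21) and H2bc21 −1.09 (SE 0.80, adjusted p = 0.683), which was 1.27 on its other probe set.

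Of the 25 shared probe sets at day 21, 15 were higher in KO and 1, an H3.3 set, lay above every control array (3.13% of all probe sets; 0.03% called and 0 of 25 called). The H2A set gave 0.80 (SE 0.37, limma adjusted p = 0.537), with KO at 2316, 1898, 5613 and 4399 and control at 1025, 2228, 2049 and 2556. The H3 set gave 0.41, the H2B set 0.13 and the H4 set −0.07 (95% interval −0.41 to 0.27). KO replicates 3 and 4 were high and KO replicates 1 and 2 lay within the control range on the H2A and H3 sets. Without the least alike array of each control group, 4 of 10 replication-dependent genes (H1f2, H2ac19, H2aw and H3c7) and 1 of 9 variants (H2az2) lay above control, against 4.99% of all genes.

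**Figure D4:**
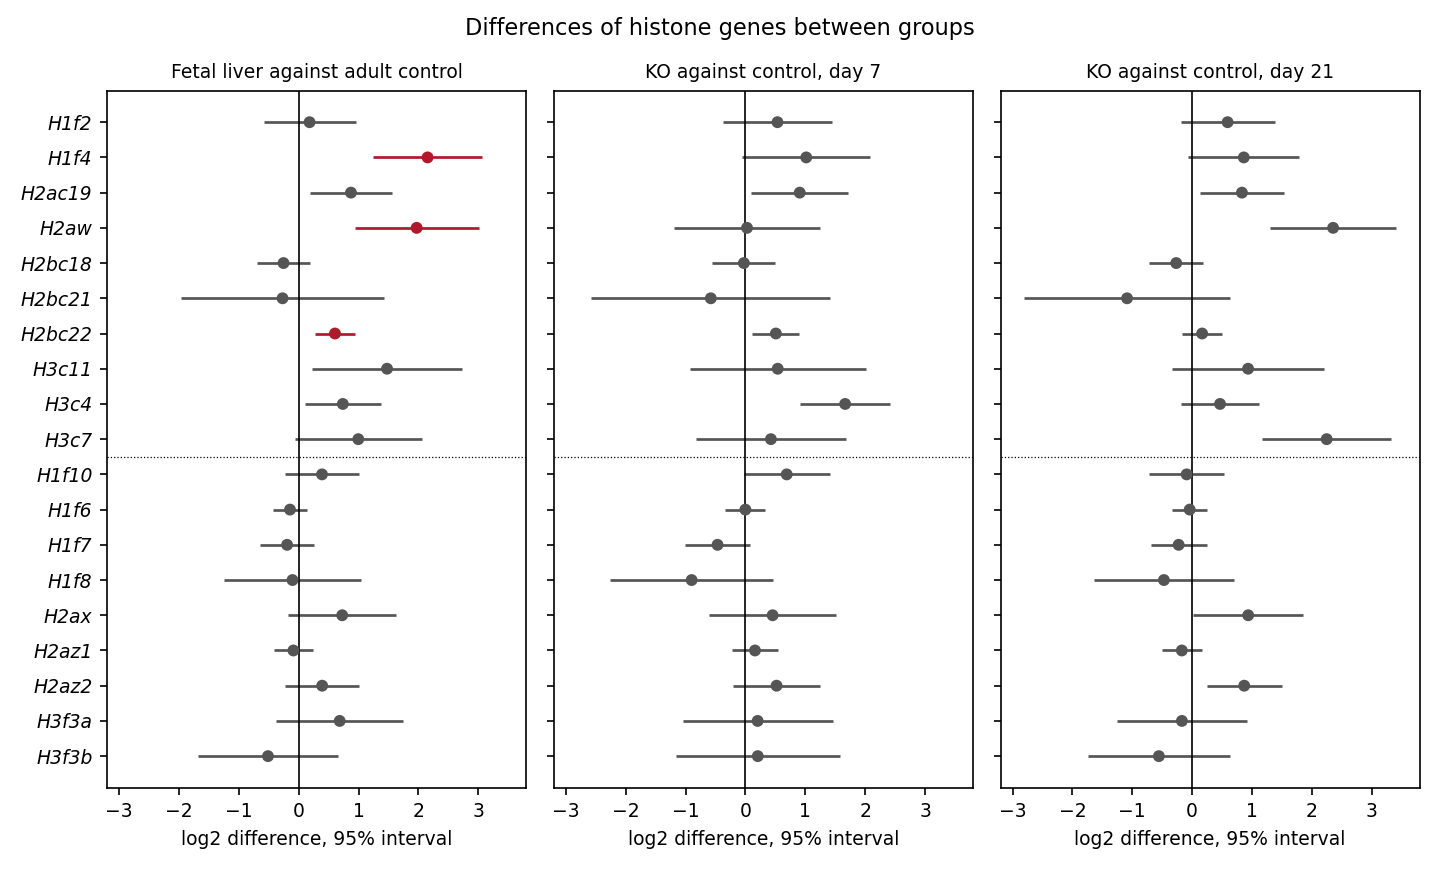
Log2 difference of each histone gene with its 95% interval for fetal liver against both adult control groups, KO against control at day 7 and KO against control at day 21, with genes of adjusted p under 0.05 in red and a dotted line between replication-dependent (upper 10) and variant genes (lower 9). H1f4, H2aw and H2bc22 are red in the fetal liver panel, and no gene is red in the KO panels.

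The test of whether the KO difference itself changed between days called no histone gene and no gene at all (0%; 758 genes and 3 histone genes at an unadjusted limma p under 0.05). The 3 were H2aw, with a day 21 minus day 7 difference of 2.33 (SE 0.75), H3c7 with 1.82 (SE 0.77) and H3c4 with −1.20 (SE 0.46), each at adjusted p = 1. The median was −0.12 over replication-dependent genes and −0.04 over variants, with 4 of 10 and 4 of 9 above 0, against 49.8% of all genes. Neither sign is stable, since the former was 0.16 without control day 21 replicate 3 and 0.35 with the 3' to 5' ratio as a covariate, and the latter 0.023 without control day 21 replicate 4. Over the shared probe sets it was −0.42, with 6 of 25 above 0. Both days share no arrays in this test.

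Between the control groups H2aw fell from day 7 to day 21, with a log2 difference of −3.53 (SE 0.53, limma adjusted p = 0.0435). Of the 4 day 21 arrays, 3 lay just above the floor of 16, so the size rests on the floor, and with a pseudocount of 16 the difference was −2.90 (limma adjusted p = 0.0616). The call covered 1 of 19 histone genes, and 0.0298% of all genes were called, all 5 of them lower. The 4 day 21 arrays (19.1 to 68.2) lay below the 3 day 7 arrays (230 to 439). H2aw was called on this probe set in 5 of 14 other settings and in 1 of 7 fits without an array, with adjusted p from 0.0151 to 0.400. Its other probe set gave −1.92 (adjusted p = 0.531), and a probe set annotated to H2aw and 1 further gene gave −0.15 (SE 0.40).

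H3c7 was the other histone gene below every day 7 control, at 36.5 to 72.0 against 134 to 154 (−1.43, SE 0.54, limma adjusted p = 0.530), so that 2 of 19 lay below against 3.38% of all genes. H2bc22 lay above, at 1152 to 1298 against 740 to 1076 (0.36, SE 0.17, adjusted p = 0.626), 1 of 19 against 2.75%. H2ax gave −0.84 (SE 0.46) and H2az2 −0.63 (SE 0.31), both overlapping, while H1f10 gave 0.39 and H1f7 0.25. H1f2 gave −0.42, H1f4 −0.38, H2az1 0.15, H3f3a 0.06 and H3f3b −0.13. Medians were −0.15 for replication-dependent and 0.06 for variant genes, with 5 of 10 and 5 of 9 higher against 48.2% of all genes, and centring, which shifts every gene by 0.16, gave 0.0048 and 0.22. The former was 0.076 without control day 21 replicate 1 and the latter −0.022 without control day 21 replicate 2. Without the least alike array of each group the medians were −0.43 and 0.27, and H2aw was not called. The 5 shared H3.3 probe sets disagreed: 2 lay below every day 7 array (−0.59, adjusted p = 0.314, and −0.91, adjusted p = 0.109) and the other 3 overlapped. Of all 25 shared probe sets, 2 lay below and 1, of H4, above every day 7 array, against 3.42% and 2.27% of all probe sets, and 0 were called (0.05% of all).

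**Figure D5:**
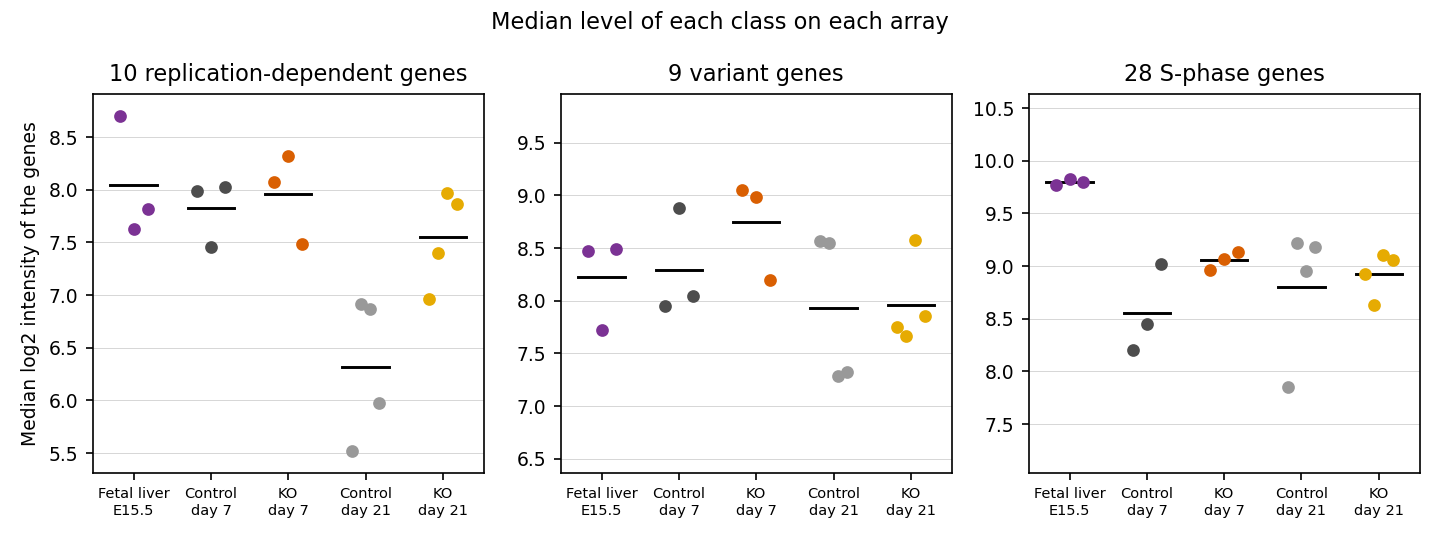
Median log2 intensity on each array over the 10 replication-dependent genes, the 9 variant genes and 28 genes of DNA replication and S phase, by group, with a line at the group mean. The axes span equal log2 ranges. The S-phase median is 9.77 to 9.82 on the fetal arrays, above every other array, whereas the replication-dependent and variant medians of fetal liver (7.62 to 8.70 and 7.73 to 8.49) overlap control day 7.

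Across arrays the replication-dependent median ran from 7.62 to 8.70 in fetal liver, 7.46 to 8.02 in control day 7, 7.48 to 8.32 in KO day 7, 5.52 to 6.92 in control day 21 and 6.96 to 7.97 in KO day 21. A median over these few genes follows its middle members. In control day 21 these were from among H2bc18, H2bc21 and H3c7, and H2aw lay below the middle on each array. The probe sets of H2bc21 disagree, as given above. Summed intensity, which follows the bright members, ran from 11280 to 12490 in fetal liver, 5142 to 6520 in control day 7, 8825 to 9948 in KO day 7, 3840 to 8181 in control day 21 and 6597 to 10220 in KO day 21. On the sum, fetal liver lay above every other group and KO day 7 above both control groups. H1f4 alone held 4826 to 6518 of the fetal sum, against 2183 to 4142 in KO day 7. The fetal separation therefore rests on this called gene and does not show a rise shared by the class. The sum of the variants ran from 4598 to 7407 over all 17 arrays.

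Genes of DNA replication and S phase, which are made in the same phase as the replication-dependent histones, had a median difference of 1.02 in fetal liver, with 28 of 28 higher. Of these, 2 rose, against 1.88% of all genes: Mcm3, a subunit of the replicative helicase (1.73, limma adjusted p = 0.0265), and Mcm10, which acts in origin firing (2.24, adjusted p = 0.0396). At day 7 the median was 0.74 in KO, with 26 of 28 higher and 0 called, against 0% of all genes. Dut, a dUTPase, gave 1.11 and Pola1, a subunit of DNA polymerase alpha, 1.71. At day 21 the median was 0.21, with 18 of 28 higher and 0 called, against 0.0179% of all genes. Rrm1, a subunit of ribonucleotide reductase, gave 0.99 (limma adjusted p = 0.215) and Mcm10 2.16. Mki67, a marker of cycling cells, ranged from 3738 to 4681 in fetal liver, 1502 to 1647 in control day 7, 2459 to 3263 in KO day 7, 1607 to 3427 in control day 21 and 2047 to 4133 in KO day 21.

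Factors that transcribe and process histone mRNA, 17 genes in all, had 6 members higher in fetal liver (median −0.41). Of these factors 0 were called, against 3.65% of all genes. Ncbp2, a subunit of the nuclear cap-binding complex, gave −1.80 (limma adjusted p = 0.0502), and Slbp, which binds the histone stem-loop, gave 0.53 (adjusted p = 0.329). In KO these factors were higher in 12 of 17 at day 7 (median 0.13) and 11 of 17 at day 21 (median 0.15). At both days 0 were called, against 0% and 0.0179% of all genes. Slbp gave 0.22 and 0.15. Srrt, which works with the cap-binding complex, gave 0.76 at day 7, and Ncbp1, the other subunit of that complex, 1.12 at day 21.

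Of 21 histone chaperone genes, 13 were higher in fetal liver (median 0.17). Ubn1, a subunit of the HIRA complex that deposits H3.3, fell by 1.57 on the log2 scale (limma adjusted p = 0.0255), and was the 1 called member, against 3.65% of all genes. Dnajc9, which binds H3 and H4, gave 0.60 (adjusted p = 0.129). At day 7, 19 of 21 were higher in KO (median 0.36), among them Hat1, a histone acetyltransferase (0.65), and Nasp, a carrier of H3 and H4 (1.15). At day 21, 14 of 21 were higher (median 0.07), and Rbbp7, which binds H4, gave −0.54. No chaperone was called in KO, against 0% of all genes at day 7 and 0.0179% at day 21.

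Genes of the complexes that deposit H2A.Z were higher in 9 of 10 in fetal liver (median 0.56). They were higher in 6 of 10 in KO at day 7 (0.44) and 8 of 10 in KO at day 21 (0.53). In each comparison 0 were called, against 3.65%, 0% and 0.0179% of all genes. Yeats4, a reader of acetylated histones, gave 0.63 in fetal liver. Actr6, a subunit of the SRCAP complex, gave 1.86 (limma adjusted p = 0.367) at day 7 and 0.81 at day 21.

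Some histone variants carry symbols outside the prefixes above. Cenpa, the centromeric H3, stood at 473 to 591 in fetal liver, 149 to 233 in control day 7, 299 to 574 in KO day 7, 104 to 542 in control day 21 and 245 to 493 in KO day 21. It gave 1.61 in fetal liver (limma adjusted p = 0.0577), 1.32 in KO at day 7 (adjusted p = 0.665, no overlap) and 1.08 at day 21 (adjusted p = 0.437). Macroh2a1, which encodes macroH2A1, gave −0.57 in fetal liver (adjusted p = 0.278), 0.36 at day 7 and −0.38 at day 21. H2aj gave −0.84 in fetal liver (adjusted p = 0.184), −0.23 at day 7 and 0.26 at day 21.

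Markers of other cells moved with the fetal comparison, in which 1.88% of all genes were called higher. Erythroid genes were higher in 11 of 11, 7 of them called, with summed intensities of 6904 to 10230 in fetal liver, 1345 to 1940 in control day 7 and 1108 to 3446 in control day 21. Hepatocyte genes were higher in 8 of 8, 3 called, at 846 to 11680 against 478 to 756 and 426 to 1184. Endothelial genes were higher in 8 of 8, 5 called, at 2140 to 12520 against 534 to 858 and 704 to 1118. Macrophage and neutrophil genes were higher in 10 of 11, 2 called, at 6705 to 42060 against 3416 to 6176 and 3159 to 7047. Of their defining genes, Adgre1 was at the floor in both control groups and Rhag in control day 7. The part of these cells in the histone values was not tested.

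Lymphoid genes were higher in 4 of 9 in fetal liver, with Cd3e and Il7r at the floor there. Megakaryocyte genes were higher in 3 of 9 and HSC identity genes in 4 of 9. Each of these lists had 0 called, against 3.65% of all genes. Multipotent progenitor genes (Cd48, Flt3 and Cd34), of which only Cd48 was part of the sort, had a median of 1.42. Of these, 3 of 3 were higher and 0 called, against 3.65% of all genes.

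Beside the KO values, multipotent progenitor genes at day 7 were higher in 3 of 3 (median 1.07), at summed intensities of 1264 to 2274 in KO and 662 to 961 in control. Erythroid genes were higher in 9 of 11 (2154 to 6796 against 1345 to 1940) and megakaryocyte genes in 9 of 9 (1774 to 4991 against 1121 to 2169). HSC identity genes were higher in 3 of 9 (6248 to 6643 against 9002 to 9644). At day 21 erythroid genes were higher in 10 of 11 (1644 to 6180 against 1108 to 3446), megakaryocyte genes in 7 of 9 (3846 to 8108 against 1330 to 8899), progenitor genes in 2 of 3 and HSC identity genes in 3 of 9. Rhag and Gp6 were at the floor in control day 7. Hepatocyte, endothelial, macrophage and neutrophil, and lymphoid genes were higher in 3 of 8, 4 of 8, 3 of 11 and 5 of 9 at day 7 and in 1 of 8, 2 of 8, 2 of 11 and 6 of 9 at day 21. No gene of these lists was called in KO, against 0% of all genes at day 7 and 0.0179% at day 21. The part of such cells in the KO histone values was not tested.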

How the data were processed

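The authors deposited linear intensities, 1 per probe set, for 45101 probe sets on 17 arrays. Per the submitters' processing notes RMA was used, with its role, version and any later scaling not stated. The lowest value was 16. Values were taken as log2 of the deposited intensity, with no pseudocount. Nor do the labels say how far the amplification copies mRNA without a poly(A) tail.

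The platform annotation listed 35890 probe sets, 34958 with 1 gene and 932 with several. The probe set with the highest mean log2 value represented a gene. Of 18194 genes, 1409 never exceeded the floor, which left 16785 for testing. Group means were fitted to the 17 arrays together in limma 3.58.1 (lmFit, eBayes) in R 4.3.3, with residual df 12 and prior df 1.5, no covariates, and calls at Benjamini-Hochberg adjusted p under 0.05. Shared probe sets were fitted with all 40023 probe sets above the floor.

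Replication-dependent genes were those with a current or older symbol of the clustered families, testis genes apart, and H2aw (Hist3h2a) was among them. Replacement variants, linker genes and called members were always named, with the 3 of smallest p in a direction where fewer were called. Other lists had at most 2 genes named per comparison. Slbp, Macroh2a1, H2aj, Cenpa and Mki67 were added with their values known. Members and lists were chosen with earlier results of these data known. The model was tested on simulated data. Promoters came from RefSeq (GRCm38.p6). Alternatives covered centring, a pseudocount, filters, probe set choice, covariates, array sets and leaving out each array. Arrays give no count depth, and their number limits the precision.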

Additional observations from a re-analysis of the deposited data

Results flagged for a closer look

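Among 38 sets of 4 arrays examined (19 histone genes in the control and KO groups of day 21), 1 array lay far from the others of its group, where chance gives about 5% of sets. It was H2aw on control day 21 replicate 2, at a log2 intensity of 6.092 (68.2 on the linear scale). The other 3 arrays lay between 4.253 and 4.39. The gap took 0.926 of the range, above the critical value of Dixon's test for 4 values. Those 3 arrays lay just above the log2 floor of 4, which narrows their spread. The test therefore cannot decide whether this array is unusual, and 1 set of 38 is no more than chance gives. The values of H2aw without this array stand beside the KO comparison at day 21.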

How the results depend on the processing

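No histone gene was called in KO at day 7 or in the difference between days under any setting run, and none in KO at day 21 except 1 (H2aw) without control day 21 replicate 2. H1f4 in fetal liver kept its call in 14 of 16 other settings and in 9 of 10 fits without an array, H2aw in 8 of 16 and 2 of 10, and H2bc22 in 7 of 16 and 1 of 10. The causes of these changes were not tested.

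In fetal liver the members called (3) went to 0 in a fit of only the arrays compared, to 1 with a 3' to 5' ratio covariate, a floor-share covariate or only the day 7 controls, and to 0 to 2 without single arrays (0 without fetal replicate 2). Genes called (613) went to 234 in a fit of only the arrays compared, 402 with only the day 7 controls and 1228 over all probe sets, and to 414 to 690 without single arrays. For control day 21 against day 7, members called (1) went to 0 with median centring, a pseudocount of 16, no filter, the mean of a gene's probe sets, only the arrays compared, either covariate, or the least alike control arrays left out, and to 0 to 1 without single arrays. Genes called (5) went to 3 with the pseudocount, no filter or the mean of probe sets, 1 with either covariate, 11 without the least alike arrays, 20 over all probe sets and 1 to 11 without single arrays. With centring they were 1 higher and 3 lower.

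For KO at day 7 the genes called (0) went to 2 with the mean of probe sets, 3 without the least alike arrays, 1 over all probe sets and 0 to 6 without single arrays. At day 21 they went from 3 to 14 with the pseudocount, 11 above the median probe set, 19 with the mean of probe sets, 12 over all probe sets, 5 without the least alike arrays, 0 in a fit of only the arrays compared, 1 with either covariate, and 1 to 43 without single arrays (43 without control day 21 replicate 2), with members called at 0 to 1. For the difference between days the genes called (0) went to 4 without the least alike arrays, 1 over all probe sets and 0 to 2 without single arrays.

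Some uncalled values changed sign. H2bc21 in KO at day 21 (−1.09) became 0.092 with the mean of its probe sets and 1.27 on the probe set with the higher linear mean. H1f6 in fetal liver ranged from −0.24 to 0.021 without single arrays (0.021 without fetal replicate 1). H1f7 between control days became −0.12 with the floor-share covariate. H2az2 in the difference between days became −0.18 with the mean of probe sets and −0.031 with the 3' to 5' covariate. Class medians stayed above 0 for replication-dependent genes in fetal liver (0.53 to 1.00) and in KO at day 7 (0.41 to 0.56) and day 21 (0.46 to 1.08).

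Deviations of same-numbered arrays from their group means correlated little (−0.03 to 0.08). With groups this small, that cannot exclude that the numbers pair arrays. With the replicate number as a block, the members called were 1 in fetal liver (H1f4) and 0 between control days. The least alike arrays, all probe sets, the higher linear mean and single control groups were settings chosen after seeing the data. Dim genes near the floor (H3c4, H3c11, H2bc21, and H2aw in control day 21) have differences that depend on the floor.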
